A study of Mus musculus with 6 samples.

Results

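The genes described here are 9 transcription factor genes of the osteoblast lineage: the Runx family (Runx1, Runx2 and Runx3), its partner Cbfb, Sp7, the pair Twist1 and Twist2, Atf4 and Mef2c. They were chosen by name, as every row of the authors' full tables whose gene symbol is one of these, and all 9 were found among 24421 rows. All 9 had a base mean, the authors' mean of normalised reads over libraries, of at least 10, and all 9 had an adjusted p. RNA-seq was made from anterior palate mesenchyme of C57BL/6 mouse embryos at E12.5, from which Dispase II had freed the epithelium. The groups were 3 wildtype samples and 3 Wnt1Cre;Meis2f/f samples, whose genotype field spells the allele Meif2f/f, and the labels call the samples of a group biological replicates. Wnt1Cre drives recombination in neural crest cells, so Meis2, a TALE homeodomain factor, was targeted in crest-derived cells, and other cells of the tissue were not. No group carries Cre without the floxed allele, and an effect of the transgene cannot be told apart from that of the Meis2 deletion. The question the design addresses is how the transcriptome of this tissue differs when Meis2 is deleted in neural crest.

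Runx2 binds DNA as a dimer with the non-DNA-binding subunit Cbfb and is required for osteoblast formation. Sp7, also called osterix, acts downstream of Runx2 in osteoblast precursors. Twist1 and Twist2 are basic helix-loop-helix factors that hold Runx2 activity back in early mesenchyme, Atf4 is a leucine zipper factor of the amino acid response that also acts in maturing osteoblasts, and Mef2c is a MADS-box factor of muscle, endothelium and craniofacial neural crest. In the palate, osteoblasts form from the neural crest mesenchyme of the shelves and ossify the hard palate.

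The sequences at the start sites are shown for the members on which the values below turn: Runx2 and Twist1, and Twist2 as the paralog of Twist1. They run from 250 bases before to 50 after a RefSeq start (GRCm38.p6), 5′ to 3′ on the gene's strand. Capitals mark the letters TGACAG (the core that Meis factors prefer), TGTGGT (the Runx core) and CATCTG (an E-box form bound by Twist dimers), on either strand. The RefSeq table holds 12 such promoters for 8 of the members, and Sp7 is the other member.
Runx2, chr17:44814578-44814877, reverse strand: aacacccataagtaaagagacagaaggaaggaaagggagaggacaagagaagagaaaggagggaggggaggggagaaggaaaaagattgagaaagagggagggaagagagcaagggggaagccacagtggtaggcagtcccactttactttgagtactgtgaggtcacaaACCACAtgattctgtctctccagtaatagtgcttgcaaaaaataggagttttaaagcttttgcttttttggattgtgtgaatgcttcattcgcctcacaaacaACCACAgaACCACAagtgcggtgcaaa
Twist1, chr12:33957421-33957720, forward strand: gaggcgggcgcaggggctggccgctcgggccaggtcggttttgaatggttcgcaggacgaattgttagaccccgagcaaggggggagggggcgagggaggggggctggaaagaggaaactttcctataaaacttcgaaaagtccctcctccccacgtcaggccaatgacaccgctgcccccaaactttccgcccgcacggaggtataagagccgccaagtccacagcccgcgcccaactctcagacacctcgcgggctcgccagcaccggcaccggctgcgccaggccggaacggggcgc
Twist2, chr1:91801211-91801510, forward strand: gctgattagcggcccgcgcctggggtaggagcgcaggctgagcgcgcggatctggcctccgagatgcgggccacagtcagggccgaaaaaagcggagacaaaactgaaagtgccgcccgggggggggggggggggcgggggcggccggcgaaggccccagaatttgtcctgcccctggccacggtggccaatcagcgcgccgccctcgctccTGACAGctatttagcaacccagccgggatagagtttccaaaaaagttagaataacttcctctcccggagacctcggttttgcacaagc

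TGTGGT was found in 3 of the 12 promoters of members, 1 each of Runx1, Runx2 and Runx3. Of all 32851 promoters of the same length, 16.8% held it. In Runx2 the letters lie at -80, 24 and 32, counted from 1 at the start base, each time on the other strand, so the printed sequence shows ACCACA. The last 2 form a tandem pair with 2 bases between, and the same pair stands in 1 promoter each of Runx1 (29 and 37) and Runx3 (-134 and -126). The pair, searched as ACCACANNACCACA on both strands after it had been seen in these genes, occurs in 7 promoters of 7 genes, 0.0213% of all, and 3 of the 7 genes are the Runx family. The windows of 30 bases that hold it are printed with the pair in capitals. Of the 16 bases outside the pair and its spacer, 13 are equal between Runx1 and Runx2, 5 between Runx1 and Runx3 and 7 between Runx2 and Runx3.
Runx1, chr16:92826025-92826054, reverse strand: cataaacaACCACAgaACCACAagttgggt
Runx2, chr17:44814583-44814612, reverse strand: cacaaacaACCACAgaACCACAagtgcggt
Runx3, chr4:135120503-135120532, forward strand: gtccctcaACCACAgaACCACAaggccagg

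TGACAG was found in 3 of the 12 promoters of members, those of Twist2 (-38), Runx3 (-229) and Atf4 (-197). Of all promoters of this length, 19.2% held it. CATCTG was found in 2 of the 12, those of Mef2c (-245) and Atf4 (-220), and in 17.2% of all promoters. The Twist1 window holds none of these 3, and the Runx2 window holds neither TGACAG nor CATCTG. In all, 8 motifs were searched. The other four were the general E-box CANNTG, with a match in 72.3% of promoters and in 5 members, and the Mef2 form TATTTATA, the Atf4 form TGATGNAA and the paired Pbx and Meis form TGATTGAC, each found in 0 members. A match is a description of the letters and not a site in use.

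As read from their base means, the deposited tables hold the authors' DESeq2 comparison of all 6 libraries and a second one of 4 of them, 2 per genotype. The submitters' design text instead pairs a wildtype and a mutant library per table, and this difference could not be resolved. The tables give 1 mean per gene. Since each mean is a sum of whole reads divided by the size factors of the libraries, the whole reads of each library could be recovered for 98.1% of the 14559 genes whose base mean was 10 or more, the 9 members among them. The libraries are named wildtype A, B and C and mutant A, B and C, where A and B are those in the 4-library table. Which sample number each carries is not known. Their size factors ran from 0.775 to 1.44 and the reads in recovered genes from 7642649 to 13863805. The direction, mutant over wildtype, was taken from Meis2, which had 1526, 1695 and 1549 normalised reads in wildtype A, B and C and 1250, 1218 and 1378 in mutant A, B and C. The mutant mean was 80.6% of wildtype, so most of the counted Meis2 transcript was still present. The deleted exons are not named in the sources used here, and reads from the rest of a deleted transcript would be counted. The log2 difference of Meis2 (mutant over wildtype, the deposited log2 fold change) was -0.28 in the authors' deposited table over 6 libraries (adjusted p 0.0743) and -0.33 in that over 4 (adjusted p 0.0213). Meis2 thus cannot check the genotype labels, and the directions below all rest on this reading.

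All 9 factors had lower mean levels in Wnt1Cre;Meis2f/f than in wildtype, and for 2 of them, Runx2 and Twist1, the difference passed the test. In the authors' deposited table over 6 libraries (DESeq2 Wald test, adjusted p under 0.05), 2 of 9 members fell and 0 rose, against 1.16% called lower and 1.75% called higher among all 14942 tested genes. In the authors' deposited table over 4 libraries, 2 of 9 fell, Twist1 and Cbfb, and 0 rose, against 0.99% called lower and 1.31% called higher among 14548 genes. Both tables use the same wildtype libraries A and B and mutant libraries A and B, so the second is no independent repeat of the first. The median log2 difference of the 9 was -0.24 in the authors' deposited table over 6 libraries and -0.18 in that over 4, against -0.012 and -0.002 over all tested genes. Of all tested genes, 53.5% were below 0 in the authors' deposited table over 6 libraries. Before adjustment, 7 of 9 members were lower at a p under 0.05 in the authors' deposited table over 6 libraries, against 5.11% of all tested genes, and 4 of 9 in that over 4 libraries, against 4.72%. In 6 of 9 members all 3 mutant libraries lay below all 3 wildtype libraries, a pattern that 8.82% of 14279 recovered genes showed. The reverse was seen in 0 of 9 and in 8.79% of recovered genes. The members were chosen with earlier results of these data known, so the shares over all genes describe the set and do not test it. With 3 libraries against 3, an exact two-sided permutation test of 1 gene cannot give a p under 0.1. In bulk RNA, fewer cells of a type and less transcript per cell cannot be told apart.

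**Figure D1:**
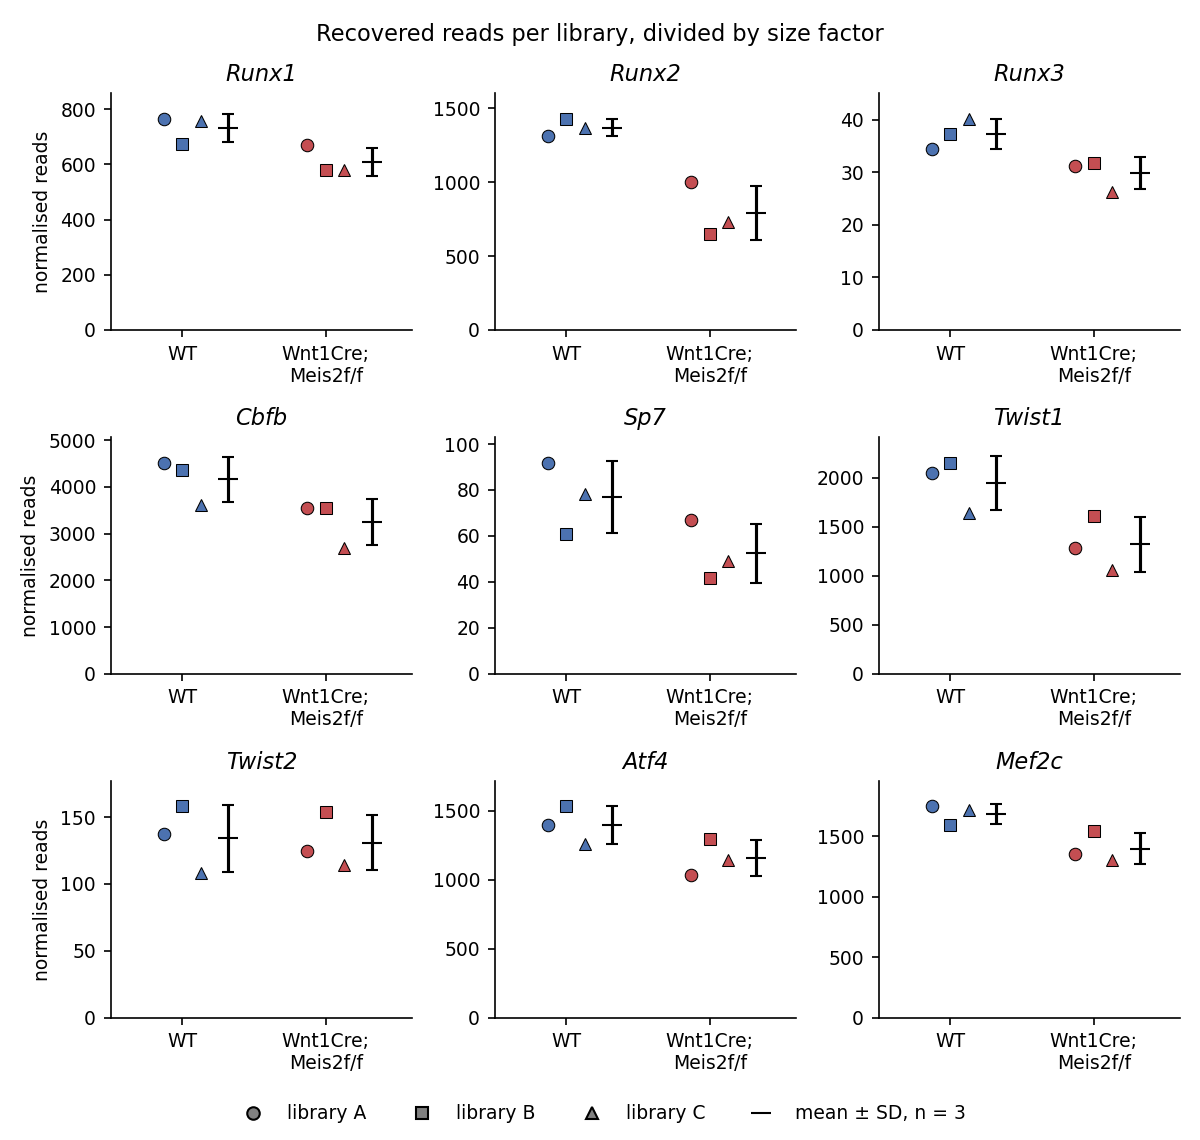
Normalised reads of the 9 factors in each library (y axis, recovered reads divided by the size factor, from 0), by genotype (x axis); circles, squares and triangles are libraries A, B and C, and the bar beside them is the mean ± SD of 3 libraries. For Runx2 the mutant libraries reach at most 1000 and the wildtype libraries are at least 1312, whereas the groups of Sp7, Twist2 and Atf4 overlap.

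Runx2 (chr17:44495987-44814797, reverse strand, GRCm38), the factor required for the osteoblast fate, had the largest difference of the 9 in the 6-library table, though not in the 4-library table, where Twist1 was further from 0. Wildtype A, B and C had 1312, 1428 and 1367 normalised reads, and mutant A, B and C had 1000, 648 and 727. The groups did not overlap, and mutant A stood above the other two mutant libraries. The mutant mean of 792 ± 185 (SD, n = 3) was 57.8% of the wildtype mean of 1369 ± 58.0 (SD, n = 3). The spread among mutant libraries was thus wider than among wildtype libraries. The authors' deposited table over 6 libraries gave a log2 difference of -0.64 (SE 0.118, adjusted p 9.3e-06). The authors' deposited table over 4 libraries gave -0.33 (SE 0.143, adjusted p 0.321), and there the call was lost. The recovered reads of those 4 libraries differed by -0.73 on the log2 scale, close to the -0.79 of all 6. Twist1 differed by -0.54 in the reads of those 4 libraries, so there Runx2 was further from 0 than Twist1. DESeq2 had pulled the deposited differences toward 0, more so where the estimate is uncertain (moderation). The share kept was estimated from the standard error, which 2 shares can fit, and the larger was always taken. By this estimate the difference of Runx2 kept 81.0% of its size over 6 libraries and 53.8% over 4. Over 4 libraries that estimate gives -0.62 before moderation, short of the -0.73 of the recovered reads. By those reads less than 53.8% was kept, so the estimate is too high there. Of the Runx2 exon bases, 5.87% also lie in Runx2os1, an antisense gene, and the sources used here do not say whether reads were counted by strand.

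Cbfb (chr8:105170674-105217989, forward strand, GRCm38), the shared partner subunit of all Runx factors, was lower in every mutant library. Wildtype A, B and C had 4519, 4351 and 3605 normalised reads, and mutant A, B and C had 3540, 3542 and 2688. Wildtype C was only just above mutant B, so the groups did not overlap by a narrow margin. The means were 4158 ± 487 and 3256 ± 492 (SD, n = 3), or 78.3% of wildtype. In the authors' deposited table over 6 libraries its log2 difference was -0.30 (SE 0.109) with an adjusted p of 0.142, not a call. In the authors' deposited table over 4 libraries it was -0.295 (SE 0.075, adjusted p 0.00624) and was called. The value thus hardly moved, and the call turned with the standard error. Cbfb is the only member whose reads were too many for its mean alone to fix them. For it the deposited fold change chose between the sets of whole reads that fit.

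Runx1 (chr16:92601466-92826149, reverse strand, GRCm38), best known from blood formation, had 765, 675 and 757 normalised reads in wildtype A, B and C. Mutant A, B and C had 669, 581 and 580. Mutant A was just under wildtype B, and the mutant mean was 83.3% of wildtype. The authors' deposited table over 6 libraries gave -0.23 (SE 0.102, adjusted p 0.357), which was not called. Runx3 (chr4:135120652-135177990, forward strand, GRCm38), known from sensory neurons, T cells and cartilage, was the weakest of the 9. It had 34.4, 37.4 and 40.2 normalised reads in wildtype A, B and C and 31.3, 31.8 and 26.3 in mutant A, B and C. These rest on 26 to 45 reads per library. The mutant mean was 79.8% of wildtype and the groups did not overlap, but the authors' deposited table over 6 libraries gave -0.14 (SE 0.150, adjusted p 0.848). That SE equals, to 3 digits, the highest of the table. By the same estimate as for Runx2, 55.1% of the size was kept, which gives -0.26 before moderation. The log2 ratio of recovered means was -0.325, so by the reads less than 55.1% was kept. The 95% interval of the moderated value was -0.44 to 0.15 in the authors' deposited table.

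Sp7 (chr15:102356606-102367182, reverse strand, GRCm38), the factor downstream of Runx2, was detected at a low level. Wildtype A, B and C had 91.9, 60.7 and 78.1 normalised reads, and mutant A, B and C had 66.8, 41.6 and 48.9. Mutant A was above wildtype B, so the groups overlapped. In both Sp7 and Runx2, mutant A was the highest and mutant B the lowest of the mutant libraries. The mutant mean was 52.4 ± 13.0 against 76.9 ± 15.6 in wildtype (SD, n = 3), or 68.2%. In the authors' deposited table over 6 libraries the log2 difference was -0.30 (SE 0.150, adjusted p 0.465), and in that over 4 libraries -0.17 (adjusted p 0.924). The log2 ratio of recovered means was -0.55 for Sp7, close to the -0.56 of Twist1, but it rests on 34 to 115 reads per library. A difference of that size was not called for Sp7.

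Twist1 (chr12:33957671-33959829, forward strand, GRCm38), a factor needed by cranial neural crest and an inhibitor of Runx2, was the other member called in the 6-library table. Wildtype A, B and C had 2052, 2156 and 1640 normalised reads, and mutant A, B and C had 1288, 1614 and 1062. Wildtype C was only just above mutant B. The mutant mean was 1322 ± 278 against 1949 ± 273 in wildtype (SD, n = 3), or 67.8%. The authors' deposited table over 6 libraries gave a log2 difference of -0.45 (SE 0.12, adjusted p 0.00859). The authors' deposited table over 4 libraries gave -0.46 (SE 0.0997, adjusted p 0.000465). Twist1 was the only member called in both.

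Twist2 (chr1:91801461-91848028, forward strand, GRCm38), its paralog, also known as Dermo1, was the member with the smallest difference. Wildtype A, B and C had 137, 158 and 108 normalised reads, and mutant A, B and C had 125, 154 and 114. The groups interleaved, and the mutant mean was 97.5% of wildtype. In the authors' deposited table over 6 libraries the log2 difference was -0.029 (SE 0.14, adjusted p 0.972), with a 95% interval of -0.304 to 0.245. That interval does not reach the -0.45 of Twist1, but the difference between the 2 genes was not tested. Of the Twist2 exon bases, 46.5% also lie in Gm29100, an antisense gene, so part of its reads may belong to that gene.

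Atf4 (chr15:80255184-80257541, forward strand, GRCm38), which turns on amino acid synthesis and transport genes, had 1398, 1530 and 1257 normalised reads in wildtype A, B and C. Mutant A, B and C had 1034, 1295 and 1140. Mutant B was above wildtype C, so the groups overlapped, and the mutant mean was 82.9% of wildtype. The authors' deposited table over 6 libraries gave -0.24 (SE 0.103, adjusted p 0.33), and that over 4 libraries -0.275 (SE 0.105, adjusted p 0.191). Mef2c (chr13:83504034-83667080, forward strand, GRCm38) had 1747, 1595 and 1716 normalised reads in wildtype A, B and C. Mutant A, B and C had 1350, 1546 and 1300. Mutant B lay just under wildtype B, and the mutant mean was 83.0% of wildtype. The authors' deposited table over 6 libraries gave -0.24 (SE 0.0938, adjusted p 0.198), and that over 4 libraries -0.18 (adjusted p 0.584). Mef2c is also expressed in skeletal muscle. Of 20 measured muscle genes 13 rose, among them Myog, and 0 fell in the authors' deposited table over 6 libraries, and 6 rose in that over 4. The summed level of the recovered muscle genes was 1194 to 1588 normalised reads in wildtype and 2603 to 4831 in mutant libraries. The part of this in the value of Mef2c was not tested.

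**Figure D2:**
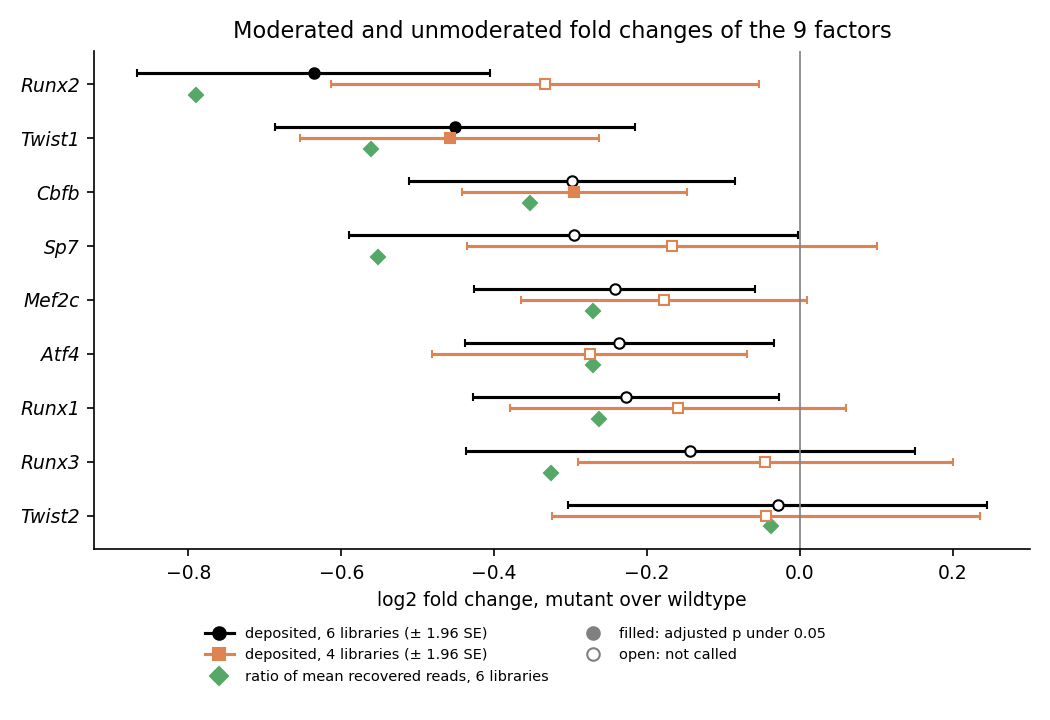
Log2 fold changes (x axis, mutant over wildtype) of each factor (y axis): circles are the deposited values of the 6-library table and squares those of the 4-library table, with bars of 1.96 SE on each side, filled where the adjusted p was under 0.05, and diamonds are the ratios of mean recovered reads. All 9 lie below 0 on each scale, and the distance from circle to diamond, the effect of moderation, is widest for Sp7, Runx3 and Runx2.

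**Figure D3:**
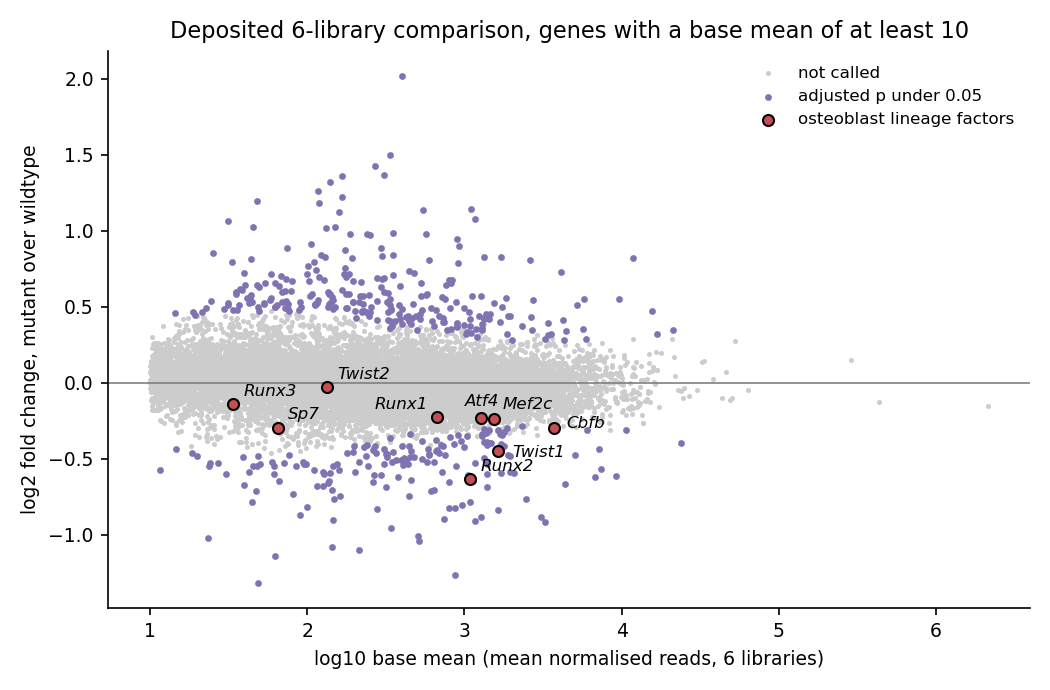
Deposited log2 difference (y axis, mutant over wildtype, 6 libraries) against the log10 base mean (x axis) for genes whose base mean is 10 or more. The 9 factors, in red, all lie below 0, and only Runx2 and Twist1 are among the genes with an adjusted p under 0.05 (purple).

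Levels of different genes were compared per length, as normalised reads per kilobase of annotated exon. In wildtype, Twist1 (1197 ± 167) and Cbfb (1195 ± 140; SD, n = 3) were highest and did not differ beyond their spread. Atf4 followed at 592 ± 57.8, Runx2 at 155 ± 6.57, Mef2c at 107 ± 5.14 and Runx1 at 60.9 ± 4.12. Twist2 at 42.3 ± 7.91, Sp7 at 22.6 ± 4.6 and Runx3 at 7.46 ± 0.586 were lowest. Each step below Cbfb was wider than the SDs of both neighbours. In the mutant the level of Runx2 per kilobase was 89.6 ± 20.9 and that of Mef2c 89.0 ± 8.26, so these neighbours no longer differed beyond their spread. The order was otherwise the same except that Cbfb (936 ± 141) had the higher mean and Twist1 (812 ± 170) the lower, within their spread. Exons of all annotated transcripts were counted in the length, so a gene with long untranslated exons that are not used here has an understated level.

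Libraries C, absent from the 4-library table, resembled each other across the genotypes. The deviations of wildtype C and mutant C from their genotype means had a Pearson r of 0.476 across 14279 genes, which are not independent replicates. The other 8 pairings of a wildtype with a mutant library ran from -0.358 to 0.209. The 3 deviations of a genotype sum to 0 for each gene, so these r are not independent of each other. A positive r between libraries C by itself pushes the pairings of C with A and B below 0. Twist1 in library C was 78.0% of the mean of A and B in wildtype and 73.2% in mutant. For Cbfb these values were 81.3% and 75.9%, and for Twist2 they were 73.0% and 81.7%. Runx2 showed less of this, with 99.8% and 88.2%. Cbfb, Twist1 and Twist2, 3 of the 9, were lowest in library C in both genotypes, as were 26.4% of recovered genes. The labels name no batch, and what sets libraries C apart was not tested.

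**Figure D4:**
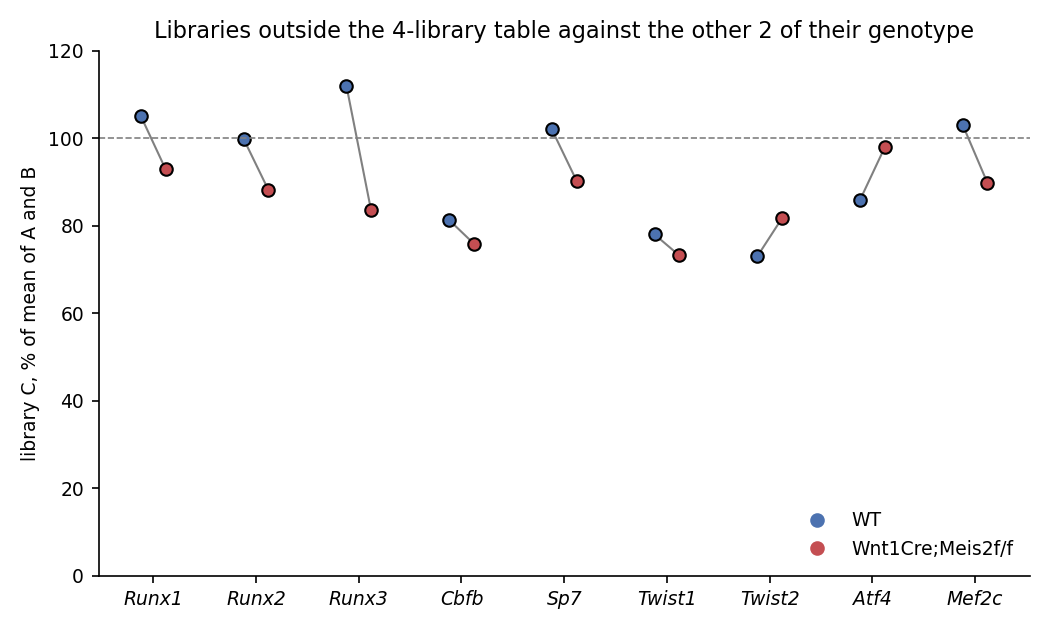
Level in library C as a percentage of the mean of libraries A and B of the same genotype (y axis, from 0) for each factor (x axis), wildtype in blue and mutant in red; the dashed line is 100%. Cbfb and Twist1 are at 73.2% to 81.3% in both genotypes, while Runx1, Runx2, Runx3, Sp7 and Mef2c lie nearer to the line in wildtype than in mutant.

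The per-library reads also allowed a test with limma across 14279 genes. It called 1 member, Runx2 (log2 difference -0.81, SE 0.138, adjusted p 0.0118), where 0.833% of genes were called lower and 1.3% higher. Twist1 had a log2 difference of -0.57 (SE 0.148) and an adjusted p of 0.091 by limma and was not called. With a term for library C, a fit chosen after its likeness had been seen, limma called 5 members lower and 0 higher, where 5.64% of genes were called lower and 4.53% higher. These were Twist1 (adjusted p 0.000169), Runx2 (0.00029), Cbfb (0.000399), Mef2c (0.0232) and Atf4 (0.0469). Runx1 had an adjusted p of 0.0539 in that limma fit, Sp7 0.118, Runx3 0.407 and Twist2 0.917. Leaving out each library in turn, limma called Runx2 in 4 of 6 fits. The call was lost without wildtype A (adjusted p 0.06) and without wildtype B (adjusted p 0.0604). Twist1 was called in 2 of 6 limma fits, without wildtype C (adjusted p 0.0364) and without mutant B (adjusted p 0.0274). Its log2 difference ran from -0.726 to -0.425 over the 6 fits and that of Runx2 from -0.99 to -0.68. That of Twist2 ran from -0.18 to 0.093, and every other member stayed below 0.

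Partners, regulators and targets of the 9 factors were taken as 7 lists with 147 measured genes, of which the authors' deposited table over 6 libraries called 12 lower and 2 higher. The share called lower among all tested genes was 1.16%, and the share called higher 1.75%. The lists too were chosen with earlier results of these data known, and no list was tested as a set. Among the other factors and signals of osteoblast commitment, 4 of 31 measured genes fell and 0 rose. Their median log2 difference was -0.036 in the authors' deposited table, against -0.013 over all measured genes. Bmp2, a ligand that induces osteoblasts, had 147, 141 and 131 normalised reads in wildtype A, B and C and 66.8, 62.4 and 46.1 in mutant A, B and C. The groups were well apart, and the mutant mean was 41.8% of wildtype. Alx4, a homeobox factor of cranial mesenchyme, was at 44.2% of wildtype, with 445 to 495 normalised reads in wildtype and 193 to 237 in mutant libraries. Msx2, a homeobox target of BMP signals, was at 24.1%, but on few reads, with 65, 18 and 33 reads in wildtype A, B and C and 18, 10 and 3 in mutant A, B and C. The deposited log2 differences in the authors' deposited table over 6 libraries were -0.82 for Bmp2, -0.96 for Alx4 and -0.55 for Msx2. Bmp2 and Alx4 were called in the authors' deposited table over 4 libraries too, and Msx2 was not (adjusted p 0.245).

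Of the genes that osteoblast factors act on, most were not called. Among 18 measured osteoblast target genes, 2 fell and 0 rose, with a median of -0.071, in the authors' deposited table over 6 libraries. These were Postn, an extracellular matrix protein of periosteum (log2 difference -0.40, adjusted p 0.000299), and the receptor gene Fgfr3 (-0.455, adjusted p 0.0406), in the authors' deposited table over 6 libraries. Fgfr3 was lost in the authors' deposited table over 4 libraries (adjusted p 0.551). Of the 18, 13 lay below 0. Before adjustment, 7 of the 18 were lower at a p under 0.05 (Wald test, authors' deposited table over 6 libraries), against 5.11% of all tested genes. Beside Postn and Fgfr3 these were Alpl, Col1a1, Col1a2, Spp1 and Phex, none of them called after adjustment.

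Cofactors of Runx proteins include corepressors, coactivators and ubiquitin ligases. Of 31 measured cofactors and regulators, the authors' deposited table over 6 libraries called 0 lower and 1 higher, and the median was 0.032. The gene that rose was Tle1, a Groucho-type corepressor that Runx proteins recruit, with 1754, 1775 and 1853 normalised reads in wildtype A, B and C and 2189, 2114 and 2352 in mutant A, B and C. The mutant libraries were all higher, at 124% of wildtype, and the log2 difference was 0.28 (adjusted p 0.0383) in the authors' deposited table over 6 libraries. The authors' deposited table over 4 libraries gave 0.27 (adjusted p 0.062) and did not call it. Of the 31, 10 lay below 0 over 6 libraries, against 54.0% of all measured genes. Before adjustment, 4 of the 31 had a p under 0.05 (Wald test, 6 libraries), against 10.5% of all tested genes in either direction. These were Tle1, Runx1t1, Tle4 and Zfp423, and all of them were higher in the mutant.

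The list of Twist partners and related helix-loop-helix genes also holds other genes, namely Fgfr1, Fgfr2, Prrx1, Snai2, Cdh2 and Cdh1. In the authors' deposited table over 6 libraries, 4 of its 18 measured genes fell and 0 rose, with a median of -0.12. Of the 4, only Hand2 and Id2 are helix-loop-helix genes. Hand2, a partner of Twist1 in facial mesenchyme, had 25, 22 and 14 reads in wildtype A, B and C and 3, 1 and 1 reads in mutant A, B and C. Its moderated log2 difference was -0.58 (adjusted p 0.000187) in the authors' deposited table over 6 libraries. Id2, an inhibitor of helix-loop-helix dimers, was at 60.8% of wildtype, with 770 to 985 normalised reads in wildtype and 455 to 587 in mutant libraries. Cdh2, the N-cadherin gene, was at 78.1%, with 1936 to 2045 normalised reads in wildtype and 1490 to 1603 in mutant libraries. Prrx1, a homeobox factor of limb and face mesenchyme, had a log2 difference of -0.31 (adjusted p 0.0204) in the authors' deposited table over 6 libraries, and its reads per library were not recovered. All 4 were also called in the authors' deposited table over 4 libraries. Before adjustment, 9 of the 18 had a p under 0.05 (Wald test, 6 libraries), against 10.5% of all tested genes in either direction. Of these 9, Tcf4, Tcf12, Msc and Bhlhe22 were higher in the mutant and the others lower.

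Of 30 measured Atf4 targets of the amino acid response, 1 fell and 0 rose, with a median of -0.083, in the authors' deposited table over 6 libraries. The gene was Vldlr, a lipoprotein receptor, with 1021 to 1107 normalised reads in wildtype and 649 to 745 in mutant libraries, or 65.3% of wildtype. Of the 30 targets, 23 lay below 0 in the authors' deposited table over 6 libraries, against 54.0% of all measured genes. Before adjustment, 5 of the 30 were lower at a p under 0.05 (Wald test), against 5.11% of all tested genes. Beside Vldlr these were Mthfd2 (log2 difference -0.39, adjusted p 0.073), Shmt2, Ddit4 and Gars, none of them called after adjustment. Asns, which makes asparagine and is a standard readout of Atf4, was at 88.2% of wildtype, and had an adjusted p of 0.75 (authors' deposited table, 6 libraries). In the list of Mef2 factors, their regulators and their neural crest targets, 2 of 15 measured genes fell and 1 rose, with a median of -0.013, in the authors' deposited table over 6 libraries. Gsc, a homeobox gene of the mandibular arch and palate, was at 46.7% of wildtype, with 181 to 236 normalised reads in wildtype and 77.1 to 109 in mutant libraries. Hand2 is the other gene that fell. Camk2d, a calcium-dependent kinase that acts on Mef2 regulators, was at 143%, with 296 to 352 normalised reads in wildtype and 388 to 507 in mutant libraries. The authors' deposited table over 4 libraries did not call it (adjusted p 0.232). The paralogs Mef2a and Mef2d were at 106% and 95.4% of wildtype and were called in neither of the authors' deposited tables.

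**Figure D5:**
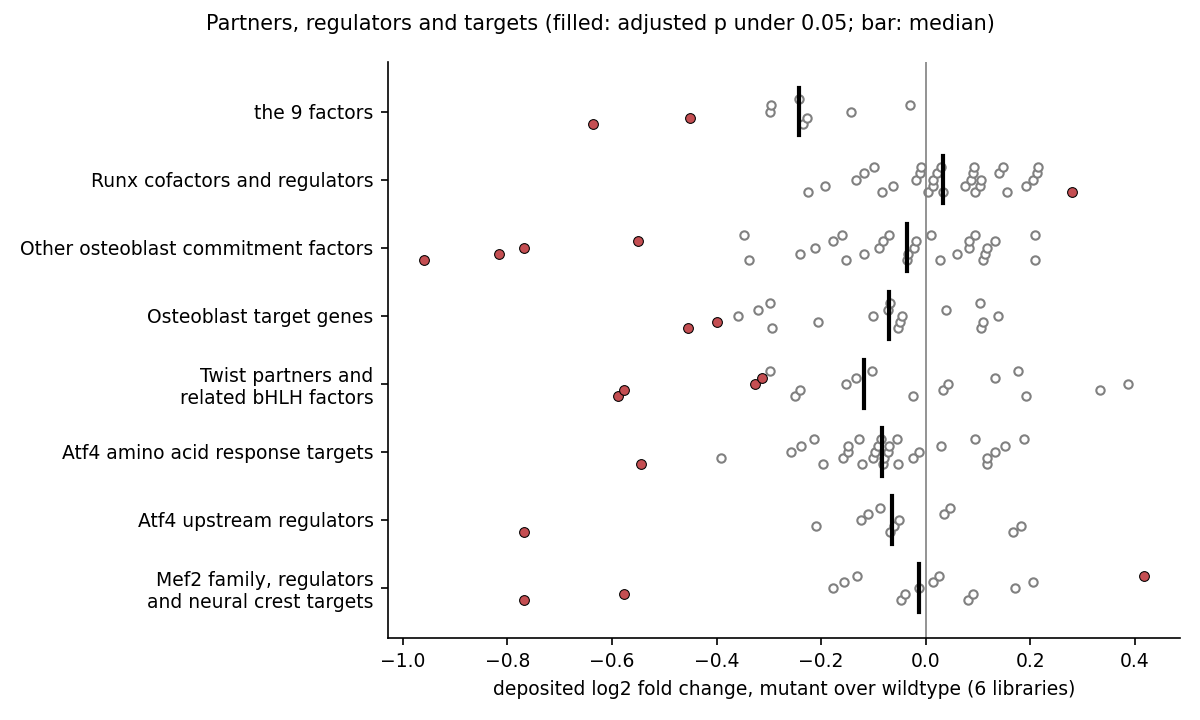
Deposited log2 differences (x axis, mutant over wildtype, 6 libraries) of the 9 factors and of the measured genes of each list (y axis); each point is a gene, filled where the adjusted p was under 0.05, and the vertical bar is the median. The bar of the 9 factors is at -0.24 and those of the lists lie between -0.12 and 0.032.

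Some marker genes of other cell types differed too. Beside the muscle genes, 5 of 11 measured neuron markers fell, among them Tubb3 and Dcx, and 0 rose in the authors' deposited table over 6 libraries, and 1 fell in that over 4. The summed level of the recovered neuron markers was 1218 to 1630 normalised reads in wildtype and 744 to 905 in mutant libraries. Of 13 measured macrophage markers, 3 rose, Csf1r, Mrc1 and Adgre1, and 0 fell in the authors' deposited table over 6 libraries. The recovered markers summed to 820 to 999 normalised reads in wildtype and 1219 to 1421 in mutant libraries. Of 12 measured cartilage markers, 2 fell, Col9a1 (log2 difference -0.785, adjusted p 8.79e-09) and Matn4 (-0.686, adjusted p 1.14e-05), and 0 rose in the authors' deposited table over 6 libraries, and 3 fell and 1 rose in that over 4. The recovered cartilage markers summed to 9244 to 11462 normalised reads in wildtype and 8505 to 9619 in mutant libraries, ranges that overlap. Of 8 measured markers of Schwann cells and glia, 1 fell, Ngfr, in the authors' deposited table over 6 libraries and 0 in that over 4, with sums of 1323 to 1736 normalised reads in wildtype and 1148 to 1300 in mutant libraries. Of 9 measured markers of pericytes and smooth muscle, 1 rose, Acta2 (0.709, adjusted p 8.87e-08), and 0 fell in the authors' deposited table over 6 libraries, with sums of 7281 to 8726 normalised reads in wildtype and 8306 to 9176 in mutant libraries. Runx1 and Runx3 are also expressed in macrophages, Runx3 in sensory neurons, and Runx2 and Runx3 in cartilage. Of 16 epithelial and 14 endothelial markers, 0 were called in either direction in the authors' deposited table over 6 libraries, 1 and 0 of them at an unadjusted p under 0.05. Of 13 blood markers, 8 were measured and 0 were called in the authors' deposited table over 6 libraries. These 8 summed to 3004 to 3702 normalised reads in wildtype and 3119 to 3314 in mutant libraries. Hbb-bt, Hbb-bs, Hba-a2 and Hba-a1 of the blood list were at 0, and no defining marker of muscle, neuron, macrophage, epithelium or endothelium was. Of 14 markers of palate mesenchyme, the tissue named in the labels, 14 were measured in the authors' deposited table over 6 libraries. Prrx1, Shox2 and Twist1 fell, and Alx1 and Pax9 rose. The part of these cell types in the values of the 9 factors was not tested.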

How the data were processed

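RNA (RNeasy Micro Plus) of 3 wildtype and 3 Wnt1Cre;Meis2f/f samples was amplified after reverse transcription and made into TruSeq RNA v2 libraries, per the labels' protocols. Per the submitters' processing notes, the tools were HISAT2, featureCounts and DESeq2, on GRCm38 or mm10. The sources used here give neither versions nor the strand setting.

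The authors deposited tables of their own DESeq2 comparison and no values per library. The base mean is a signal, deposited by the authors, of reads per gene averaged over libraries after division by size factors. Fold changes and standard errors are on the log2 scale and moderated, and the Wald statistic is a score, both as deposited. The p-values, adjusted by Benjamini-Hochberg, are those deposited by the authors. A further table repeats 1613 rows of the 6-library table, those with a p under 0.05, and adds no measurement.

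Values per library had not been foreseen, and recovering them was chosen after the data were examined. Genes with 1 read in all give the worth of 1 read in each of the 6 libraries, and the sign of their deposited fold change gives the library's group in the authors' comparison. Whole reads that sum to each base mean were then found by lattice reduction, from base means of 15 digits (4 libraries) and 10 digits (6 libraries). Of 14559 genes whose base mean was 10 or more, 13947 had 1 solution, and for 332 the deposited fold change chose between solutions. Replicate libraries differed by 2.53 to 6.02 times sampling noise, so none was a copy. Mutant and wildtype levels are means of reads divided by size factors. The limma fit (limma 3.58.1, R 4.3.3) used log2(normalised reads + 1) with an intensity trend, and Python 3.11.15 did the rest. The search and the fit were tested on simulated data. Counting error grows as reads become few, and amplification can add to it.

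The test kept for calls is the authors' adjusted p under 0.05 over 6 libraries. A list gene is measured where its base mean reaches 10. Named are all 9 members, the called genes of each list (or the 2 of lowest p), called markers and Meis2, while Asns, Mef2a and Mef2d were chosen after their values were seen. In some lists the genes with an unadjusted p under 0.05, or those not measured, are named too. Alternatives were the 4-library table, other gene sets for the adjustment, limma on recovered reads (also with a term for the libraries outside the 4-library table) and leaving out each library. The values of 1 called list gene are not reported here. The members and lists were chosen with earlier results of these data known. Gene positions and exon lengths are from the GENCODE annotation of GRCm38, and no protein sequences were used here.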

Additional observations from a re-analysis of the deposited data

How the results depend on the processing

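With p adjusted over all genes, over those whose base mean reaches 10 or over those reaching 100, the authors' 6-library comparison called 2 members lower and 0 higher, as in the main result. The 4-library table also called 2 lower, but with Cbfb in place of Runx2. On recovered reads, limma called 1 member lower, and 5 with a term for library C. Leaving out each library in turn, limma called 0 to 2 members lower and 0 to 0 higher. Of the pathway list genes, 12 were called lower and 2 higher in the main result. Those called lower were 20 with the library C term in limma and 6 to 9 when each library was left out. Those called higher were 1 with p adjusted over all genes, 0 in the 4-library table, 0 with limma, 4 with the library C term and 0 to 1 when each library was left out. Over all genes, limma called 305, 1452 with the library C term, and 128 (without wildtype A) to 326 (without wildtype C) when 1 library was left out. What moved the calls was not tested. No value reversed its direction past a threshold. Runx3 and Sp7 rest on 26 to 115 reads per library, and the part of depth in their missing calls was not tested. No paired analysis was possible because the recovered libraries carry no replicate number. The library C term rests on the base means, not on the pairing that the design text gives.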
